A study of Mus musculus with 4 samples.

Results

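The genes described here are *Igf1*, the IGF receptor genes *Igf1r* and *Igf2r*, and the IGF binding protein genes *Igfbp2*, *Igfbp3*, *Igfbp4*, *Igfbp5*, *Igfbp6* and *Igfbp7*. They were taken by name from single-cell count tables of the mouse sciatic nerve, and 9 of 9 were listed in all 4 libraries, among 22716 genes listed in any library. Each library was 1 sample of wildtype CD1 mice profiled by Drop-seq, in which single cells are caught in droplets with barcoded beads and each captured mRNA molecule carries a unique molecular identifier (UMI). The 3 DPI library came from the distal segment of adult sciatic nerve, taken 3 days after the nerve had been resected, the uninjured library came from intact adult nerve, and the other libraries came from neonatal nerve at P2 to P3 (neonatal beads) and at P3 to P4 (neonatal FACS). All nerves were dissociated with collagenase and trypsin. The adult cells and the neonatal beads cells were then cleared of debris with myelin removal beads, which can take myelinating cells with it, whereas the neonatal FACS cells were sorted as live nucleated cells. The sources used here do not say how many mice went into a library. With 1 library per condition, differences between conditions are given as values with no test.

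IGF1 is a secreted peptide that promotes survival, growth and, in the nerve, neurite outgrowth and Schwann cell myelination. It signals through IGF1R, a receptor tyrosine kinase, whereas IGF2R, the cation-independent mannose 6-phosphate receptor, takes up IGF2 and routes it to lysosomes. The IGF binding proteins hold IGFs outside the cell, where they can prolong, carry or block the action of the ligand, and proteases free the ligand from them.

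After removal of poor and doublet-scored barcodes, 11612 cells were kept, with a median of 1792 UMIs per cell at 3 DPI, 1625 in uninjured, 994 in neonatal beads and 1568 in neonatal FACS. The libraries held 8123103, 4513814, 7634799 and 5110171 UMIs in all, and 8 barcodes were shared over all pairs of libraries. Cells were clustered without the IGF genes and fell into 6 marker-defined classes, which were endoneurial-like, epineurial/perineurial-like, Schwann-like, endothelial-like, vascular smooth muscle (VSM)/pericyte-like and immune-like. Endoneurial markers (*Wif1*, *Etv1*, *Osr2*, *Sox9*) summed to between 756 and 1556 UMIs per 1000000 UMIs of the class (CPM) in endoneurial-like cells and to between 56.4 and 174 CPM in epineurial/perineurial-like cells. Schwann markers summed to 3886 CPM in 3 DPI Schwann-like cells against 28242 CPM in uninjured ones. The immune-like class held 511 cells at 3 DPI but 18, 38 and 80 in the uninjured, neonatal beads and neonatal FACS libraries, and the neonatal immune-like cluster was led by the mast cell genes *Cma1*, *Tpsb2* and *Cpa3*. Immune-like ratios between conditions were therefore not made. The perineurial cells did not form a cluster of their own at 3 DPI, where perineurial markers summed to 76.4 CPM in the epineurial/perineurial-like class against 772 CPM in uninjured.

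CPM values are given below in the order 3 DPI, uninjured, neonatal beads, neonatal FACS. To compare classes, UMIs were summed per class and library, and each class was tested against the mean of the other 5 classes on the log2 scale with edgeR's quasi-likelihood test, with the 4 libraries as replicates and as a block. Adjusted p-values are Benjamini-Hochberg values over 10030 genes. The replicates differ in age, injury and preparation, so these p-values measure whether a class difference held over those libraries.

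**Figure D1:**
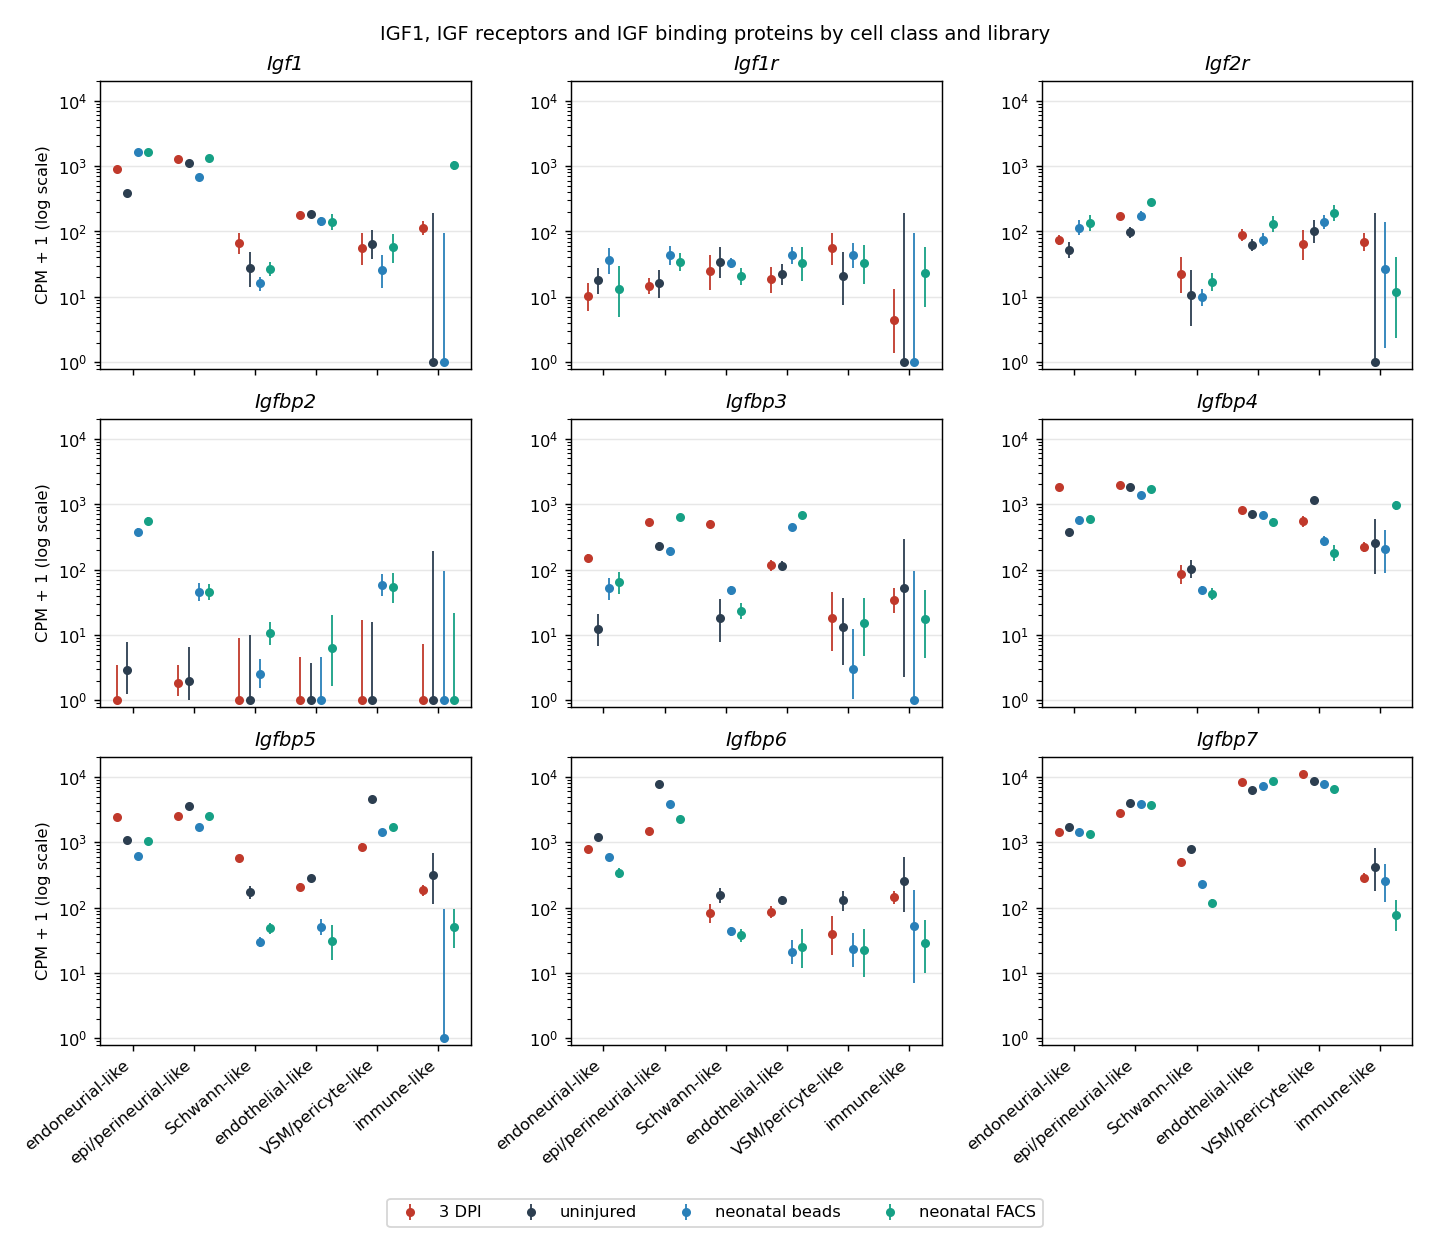
CPM + 1 on a log axis for each gene in the 6 cell classes, with 1 point for each library and exact 95% Poisson intervals that cover counting error only. *Igf1* lay highest in the mesenchymal classes, *Igfbp7* in the vascular classes, *Igfbp2* was near 0 in both adult libraries, and *Igf1r* lay within about the same low range in all classes other than immune-like.

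*Igf1*, the ligand (chromosome 10, 87858265 to 87937047, plus strand, mm10), was mostly a mesenchymal transcript. It stood at 916, 381, 1645 and 1669 CPM in endoneurial-like cells and at 1279.6, 1119, 685 and 1309.7 CPM in epineurial/perineurial-like cells. Endothelial-like cells had 178, 182, 143 and 138 CPM, VSM/pericyte-like cells 55.6, 64.0, 24.7 and 56.4 CPM, and Schwann-like cells 64.9, 26.5, 15.1 and 25.8 CPM. Neither mesenchymal class overlapped with any of these 3 classes. *Igf1* was higher in endoneurial-like cells than in the other classes by 3.14 (SE 0.39, adjusted p = 1.35e-06, higher in 4 of 4 libraries) and in epineurial/perineurial-like cells by 3.00 (SE 0.38, adjusted p = 1.55e-06, 4 of 4) on the log2 scale. Schwann-like (log2 difference -3.50, adjusted p = 8.45e-05) and VSM/pericyte-like cells (-2.62, adjusted p = 0.00277) were lower, each higher in 0 of 4. The mesenchymal classes did not differ detectably from each other over the 4 libraries (log2 difference 0.12, SE 0.56, adjusted p = 0.993), and endoneurial-like cells were lower in both adult libraries and higher in both neonatal ones. The neonatal order turned without doublet removal, at most 5% mitochondrial UMIs or with library size normalization, where epineurial/perineurial-like cells were highest. Immune-like cells ranged widely, with 113 and 1028 CPM at 3 DPI and in neonatal FACS and no UMI in 18 uninjured and 38 neonatal beads cells. Among so few cells, 3 with a UMI would be a share of 16.7% and 7.89%. The neonatal FACS and beads immune-like cells also differed in their mast cell markers, at 3791 and 64559 CPM.

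Within the mesenchymal cells, *Igf1* varied with the subtype. At 3 DPI the epineurial cluster led by *Cxcl13* and *Pi16* had 2230 CPM and that led by *Inmt* and *Comp* 1632 CPM. In uninjured the order of these kinds was the other way. The epineurial cluster led by *Inmt* and *Gdf10* had 1386 CPM and that led by *Krtdap* and *Pi16* 766 CPM. The epineurial cluster had 2099 CPM in neonatal beads and 2671 CPM in neonatal FACS. Perineurial clusters were recognised by the markers *Msln*, *Casq2*, *Slc2a1*, *Itgb4* and *Cldn1*. They had 98.8 CPM in uninjured and 304 and 358 CPM in the neonatal libraries, below every epineurial cluster. In uninjured nerve the endothelial-like cells were also uneven, with 396 CPM in the cluster led by *Selp* (124 cells), a venular adhesion gene, against 15.3 CPM in the cluster led by *Slco1a4* and *Cldn5* (149 cells) and 68.5 CPM in that led by the capillary genes *Rbp7* and *Gpihbp1* (146 cells), which also held the lymphatic endothelial genes *Ccl21a*, *Mmrn1* and *Lyve1* among its leading genes.

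**Figure D2:**
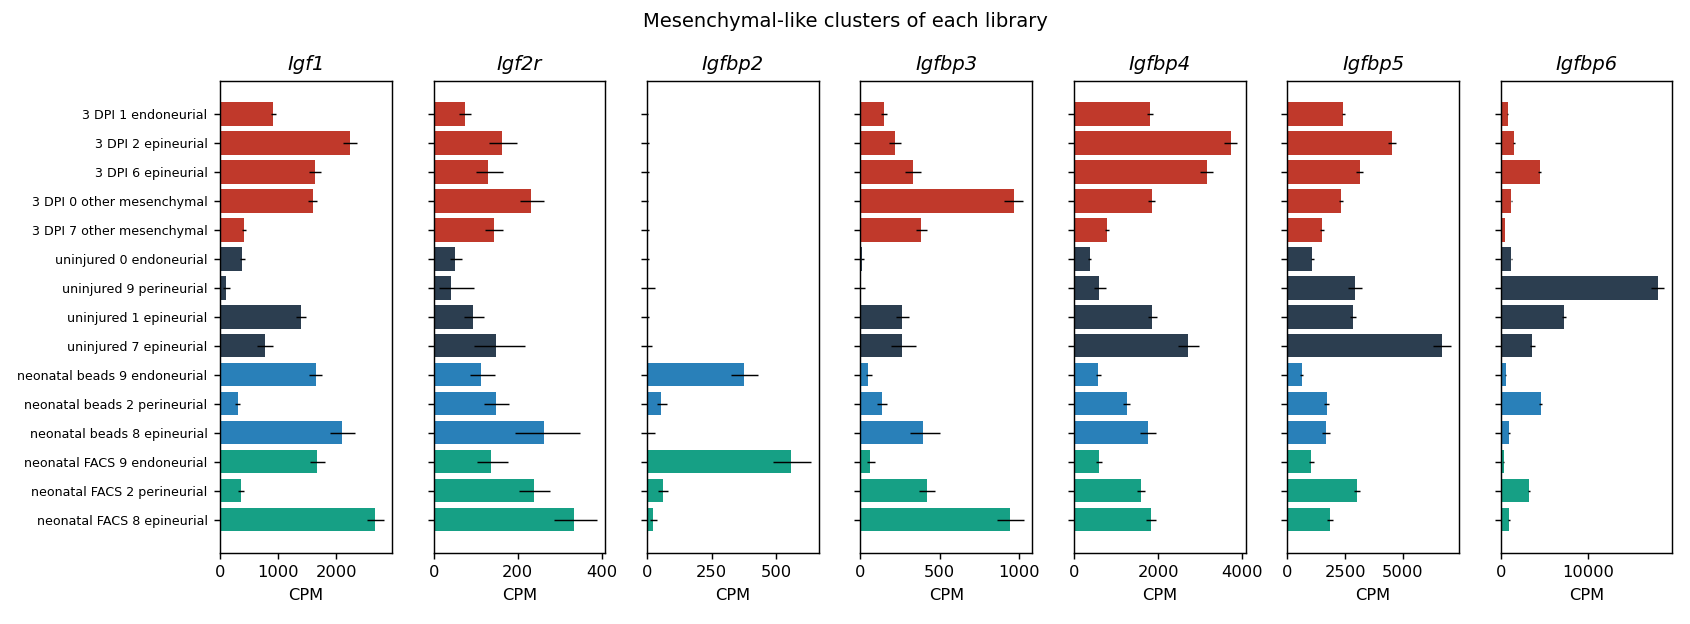
CPM (linear axes, each gene on its own scale) of 7 genes in every mesenchymal-like cluster, coloured by library, with exact 95% Poisson intervals. Row labels give the library, the cluster number and the marker-defined subtype. In the uninjured and neonatal libraries *Igf1* was highest in an epineurial and *Igfbp6* in the perineurial cluster. *Igfbp2* appeared in neonatal endoneurial cells, and *Igfbp3* reached 965 CPM in 3 DPI cluster 0.

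*Igf1r* (chromosome 7, 67952257 to 68233668, plus strand), which encodes the signalling receptor, was detected in every class but sparsely. Schwann-like cells had 23.8, 33.7, 32.1 and 19.8 CPM, endothelial-like cells 17.8, 21.1, 42.3 and 32.4 CPM, and VSM/pericyte-like cells 55.6, 20.01, 43.3 and 31.7 CPM. Endoneurial-like cells had 9.22, 16.9, 35.5 and 12.1 CPM and epineurial/perineurial-like cells 13.8, 15.1, 42.6 and 33.4 CPM. These 5 ranges overlapped, and *Igf1r* passed the threshold in no contrast, with an adjusted p of 0.0797 for lower levels in immune-like cells and of 0.104 for higher levels in VSM/pericyte-like cells. Its UMIs were found in at most 9.76% of the cells of any class. The libraries held 106, 80, 248 and 114 *Igf1r* UMIs in all, so smaller differences were not detectable at this depth.

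*Igf2r* (chromosome 17, 12682406 to 12769706, minus strand), the clearance receptor, was by contrast uneven across classes. Epineurial/perineurial-like cells had 172, 96.6, 172 and 278 CPM and were higher than the other classes by 1.77 on the log2 scale (SE 0.23, adjusted p = 1.75e-06, 4 of 4 libraries). VSM/pericyte-like cells followed with 64.2, 100.1, 138 and 194 CPM (log2 difference 0.97, adjusted p = 0.0121, 3 of 4), then endoneurial-like cells with 73.8, 51.7, 114 and 135 CPM (0.70, adjusted p = 0.0454, 4 of 4) and endothelial-like cells with 86.9, 61.7, 74.1 and 129.7 CPM. The ranges of these 4 classes overlapped, and in uninjured the VSM/pericyte-like value was the highest. Schwann-like cells were below all of them at 21.6, 9.63, 8.79 and 16.1 CPM (log2 difference -3.02, SE 0.35, adjusted p = 3.29e-07, higher in 0 of 4). The call in endoneurial-like cells was lost in 6 of 14 alternative analyses (adjusted p up to 0.300) and that in VSM/pericyte-like cells in 4 of 14 (up to 0.137).

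*Igfbp2* was a neonatal endoneurial transcript. Its gene (chromosome 1, 72824480 to 72852474, plus strand) lies 5590 bases from *Igfbp5* (72858065 to 72874865, minus strand), so that the 3′ ends of these genes face each other. Endoneurial-like cells had 375 CPM in neonatal beads and 556 CPM in neonatal FACS, where 37.4% (exact 95% interval 31.7 to 43.3) and 61.5% (51.7 to 70.6) of cells held a UMI. At 3 DPI no UMI was seen in 276 endoneurial-like cells, where 3 cells would be a share of 1.09%, and the uninjured library had 2 UMIs in 418 cells. With every cell thinned to 500 UMIs the neonatal shares were 18.1% and 19.8%.

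In the other neonatal cells *Igfbp2* was lower. Epineurial/perineurial-like cells had 45.0 and 44.8 CPM and VSM/pericyte-like cells 57.7 and 52.9 CPM in neonatal beads and neonatal FACS, and Schwann-like cells had 1.51 and 9.69 CPM, with a UMI in 0.164% of the neonatal beads cells. The perineurial cluster held more (55.6 and 60.8 CPM) than the epineurial cluster (5.58 and 21.8 CPM). The adult libraries held 3 *Igfbp2* UMIs each, so the calls that follow rest on the neonatal libraries. In uninjured, endoneurial-like cells had 2 UMIs and epineurial/perineurial-like cells 1, and at 3 DPI they had 0 and 3. Endoneurial-like cells were higher than epineurial/perineurial-like cells with an adjusted p of 0.000458 (higher in 3 of 4 libraries), a call lost in 2 of 14 alternatives, DESeq2 among them (adjusted p = 0.339, over the alternatives 1.60e-10 to 0.339). *Igfbp2* was also called higher in endoneurial-like (adjusted p = 4.55e-10), epineurial/perineurial-like (0.00352) and VSM/pericyte-like cells (0.0104) than in the other classes, where the fold is not given because immune-like cells were at 0 in every library. The epineurial/perineurial-like and VSM/pericyte-like calls were lost in 5 and 3 of 14 alternatives (adjusted p up to 0.535 and 0.569).

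*Igfbp3* (chromosome 11, 7206086 to 7215498, minus strand) encodes the main carrier of IGFs in serum. In the nerve it was found in epineurial/perineurial-like cells at 531, 230.5, 189.5 and 633 CPM and in endothelial-like cells at 116, 114, 448 and 669.9 CPM. Endoneurial-like cells had 149, 11.3, 50.4 and 62.9 CPM, Schwann-like cells 502, 16.9, 46.9 and 22.1 CPM, and VSM/pericyte-like cells 17.1, 12.01, 2.06 and 14.1 CPM. It was higher than in the other classes by 3.20 (SE 0.47, adjusted p = 1.19e-05, 4 of 4 libraries) in epineurial/perineurial-like and by 2.79 (SE 0.50, adjusted p = 0.000117, 3 of 4) in endothelial-like cells on the log2 scale, and lower in VSM/pericyte-like (-3.54, adjusted p = 0.00495, 0 of 4) and immune-like cells (-2.53, adjusted p = 0.0471, 1 of 4). Against epineurial/perineurial-like cells, endoneurial-like cells were lower in 4 of 4 libraries (-2.85, SE 0.66, adjusted p = 0.00739). The immune-like call was lost in 6 of 14 alternatives (adjusted p up to 0.148), that between the mesenchymal classes in 3 (up to 0.161).

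The Schwann-like value of *Igfbp3* at 3 DPI stood apart from the other 3 libraries. It rested on 232 UMIs in 43 of 141 cells (30.5%, exact 95% interval 23.0 to 38.8), against 7 UMIs in 5 of 359 uninjured cells (1.39%, 0.454 to 3.22). Of the 3 DPI VSM/pericyte-like and immune-like cells, 4.88% and 3.72% held a UMI. Thinned to 500 UMIs per cell, the shares were 12.6% in 3 DPI Schwann-like, 0.292% in uninjured Schwann-like and 2.17% in 3 DPI immune-like cells. Schwann-like cells of the same library had 84.4 CPM of *Igfbp4* and 82.2 CPM of *Igfbp6*, where epineurial/perineurial-like cells had 1977 and 1504 CPM. *Igfbp5* stood at 573 CPM against 2522 CPM and *Igfbp7* at 498 CPM against 2839 CPM in these classes, and *Igfbp3* at 502 against 531 CPM. Mesenchymal markers summed to 5277 CPM in 3 DPI Schwann-like cells, 4469 CPM in uninjured Schwann-like cells and 37744 CPM in 3 DPI epineurial/perineurial-like cells. Only 7 of the 141 cells at 3 DPI had no UMI of 6 mesenchymal markers, and these held 1 *Igfbp3* UMI. The part of mesenchymal RNA in the *Igfbp3* value was not tested.

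*Igfbp4* (chromosome 11, 99040005 to 99052655, plus strand), whose product is cleaved by the protease PAPP-A to free IGF, was widespread outside Schwann-like cells. Epineurial/perineurial-like cells had 1977, 1859, 1361 and 1692 CPM, endothelial-like cells 808, 712, 676 and 532 CPM, and VSM/pericyte-like cells 544, 1137, 272 and 179.8 CPM. Endoneurial-like cells had 1803 CPM at 3 DPI but 374, 581 and 590.3 CPM in the other libraries, and Schwann-like cells had 84.4, 101, 47.9 and 41.0 CPM, below every other class of the same library. It was higher in epineurial/perineurial-like cells by 2.31 (SE 0.33, adjusted p = 9.06e-06, 4 of 4 libraries) and lower in Schwann-like cells (-3.61, SE 0.51, adjusted p = 6.51e-06, 0 of 4). A call in endoneurial-like cells (1.04, adjusted p = 0.0432, 3 of 4) was lost in 5 of 14 alternatives. Without the 3 DPI library the log2 difference was 0.53 (adjusted p = 0.423), and without neonatal beads 1.04 (adjusted p = 0.160). Immune-like cells of the neonatal FACS library had 956 CPM, against 221, 258 and 202 CPM in the others.

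*Igfbp5*, which encodes a binding protein that attaches to extracellular matrix, had its highest levels in mesenchymal and mural cells. VSM/pericyte-like cells had 843, 4659, 1451 and 1696 CPM, epineurial/perineurial-like cells 2522, 3521, 1699 and 2528 CPM, and endoneurial-like cells 2433, 1087, 622 and 1043 CPM. These ranges overlapped, and the class with the highest value was epineurial/perineurial-like in 3 libraries and VSM/pericyte-like in uninjured. Endothelial-like cells had 208, 287, 50.05 and 29.7 CPM and Schwann-like cells 573, 171, 29.1 and 47.5 CPM. The log2 differences were 3.21 (SE 0.36, adjusted p = 2.53e-07, 4 of 4) for epineurial/perineurial-like, 2.61 (SE 0.38, adjusted p = 1.66e-05, 4 of 4) for VSM/pericyte-like and 1.83 (SE 0.37, adjusted p = 0.000684, 4 of 4) for endoneurial-like cells. They were -2.30 for Schwann-like (adjusted p = 0.00103), -2.55 for endothelial-like (adjusted p = 0.000418) and -2.81 for immune-like cells (adjusted p = 0.00107), each higher in 0 of 4 libraries.

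*Igfbp6* (chromosome 15, 102144186 to 102149512, plus strand), whose product prefers IGF2 to IGF1, was found mainly in mesenchymal cells. Epineurial/perineurial-like cells had 1504, 7901, 3797 and 2283 CPM and endoneurial-like cells 789, 1191, 589.9 and 336 CPM. Schwann-like cells had 82.2, 154, 42.2 and 36.9 CPM, endothelial-like cells 84.97, 131, 20.2 and 24.3 CPM and VSM/pericyte-like cells 38.5, 128, 22.7 and 21.2 CPM, all below the lowest mesenchymal value. It was higher in epineurial/perineurial-like cells by 5.34 (SE 0.24, adjusted p = 6.13e-14) and in endoneurial-like cells by 2.45 (SE 0.24, adjusted p = 3.78e-08), each in 4 of 4 libraries. VSM/pericyte-like (-2.63, adjusted p = 1.06e-05), endothelial-like (-2.22, adjusted p = 1.50e-05), Schwann-like (-1.83, adjusted p = 9.56e-05) and immune-like cells (-1.10, adjusted p = 0.0301) were lower, each higher in 0 of 4, and the immune-like call was lost in 6 of 14 alternatives (up to 0.181). Between the mesenchymal classes, endoneurial-like cells were lower by a log2 value of -2.41 (SE 0.36, adjusted p = 8.29e-05, 0 of 4). That call was lost in 4 of 14 alternatives (adjusted p up to 0.382), among them 3 in which the neonatal beads endoneurial-like class held 549 to 625 cells in place of 281 because it took up perineurial cells.

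The perineurial and epineurial cells divided *Igfbp6* in the opposite way to *Igf1*. The uninjured perineurial cluster (64 cells) had 17888 CPM of *Igfbp6* and 98.8 CPM of *Igf1*, and the uninjured epineurial clusters had 7240 and 3602 CPM of *Igfbp6*. In neonatal beads and neonatal FACS the perineurial cluster had 4568 and 3214 CPM of *Igfbp6*, the epineurial cluster 938 and 952 CPM. At 3 DPI the epineurial clusters had 4443 CPM (led by *Inmt* and *Comp*) and 1534 CPM (led by *Cxcl13* and *Pi16*).

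*Igfbp7* (chromosome 5, 77349240 to 77408045, minus strand) encodes a secreted protein of vessels that binds IGFs weakly. It was highest in the vascular classes, with 10884, 8626, 7886 and 6574 CPM in VSM/pericyte-like cells and 8317, 6345, 7275 and 8644 CPM in endothelial-like cells, ranges that overlapped. Epineurial/perineurial-like cells had 2839, 3961, 3809 and 3703 CPM, endoneurial-like cells 1448, 1725, 1445 and 1348 CPM, Schwann-like cells 498, 789.8, 226 and 117 CPM and immune-like cells 286, 412.5, 252 and 77.4 CPM. The first 4 of these classes kept that order in every library apart from VSM/pericyte-like and endothelial-like cells, which changed places in neonatal FACS. The log2 differences were 2.63 (SE 0.24, adjusted p = 9.33e-09) for VSM/pericyte-like, 2.50 (SE 0.24, adjusted p = 1.50e-08) for endothelial-like and 1.44 (SE 0.26, adjusted p = 0.000152) for epineurial/perineurial-like cells, each in 4 of 4 libraries. They were -2.85 (SE 0.35, adjusted p = 9.56e-07) for Schwann-like and -3.66 (SE 0.39, adjusted p = 1.37e-07) for immune-like cells, each higher in 0 of 4. Endoneurial-like cells were below epineurial/perineurial-like cells in 4 of 4 libraries (-1.26, SE 0.36, adjusted p = 0.0335), a call lost in 10 of 14 alternatives (adjusted p up to 0.698).

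Counted by class, 6 of 9 genes were called higher and 0 lower in endoneurial-like cells, where 24.6% of all genes tested were called in either direction, and 8 were called higher and 0 lower in epineurial/perineurial-like cells, where 21.6% were. In Schwann-like cells 0 were higher and 6 lower (33.2% of all genes), in endothelial-like cells 2 were higher and 2 lower (30.0%), in VSM/pericyte-like cells 4 were higher and 3 lower (19.3%), and in immune-like cells 0 were higher and 4 lower (27.3%). Between the mesenchymal classes 1 gene, *Igfbp2*, was higher and 3 were lower in endoneurial-like cells, where 7.36% of all genes were called. The counts of genes called higher in the endoneurial-like, epineurial/perineurial-like and VSM/pericyte-like classes also include *Igfbp2*. All its calls rest on the neonatal libraries. Leaving out *Igfbp2*, the median log2 difference over the other 8 genes stood at 0.87 for the endoneurial-like class, at 2.65 for the epineurial/perineurial-like and at -2.57 for the Schwann-like class and, in the remaining classes, 0.31 (endothelial-like), 0.39 (VSM/pericyte-like) and -1.28 (immune-like). The medians over all genes tested lay between -0.12 and 0.06. Of the 39 calls, 26 held in every one of the 14 alternatives run and 13 were lost in 1 or more, among them, in 1 each, *Igfbp5* in Schwann-like (adjusted p = 0.0750 without the library block) and *Igf1* in VSM/pericyte-like cells (0.0621 with cell-by-cell assignment).

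To ask how the injured distal nerve differed from the intact nerve, the 3 DPI CPM of each class was divided by the uninjured CPM, with an exact 95% interval for counting error alone. Among 37 gene and class pairs with at least 20 UMIs, 8 were at least 2-fold higher and 4 at least 2-fold lower at 3 DPI. As a measure of how far libraries of nearly one age can lie apart, the neonatal FACS to neonatal beads ratio passed 2-fold in 5 of 42 pairs. The neonatal libraries differ in preparation and were clustered together, whereas 3 DPI and uninjured were clustered each alone. The measure is therefore not like for like. Over all genes in the same 5 classes, 23.6% of pairs passed 2-fold between 3 DPI and uninjured and 11.1% between the neonatal libraries.

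In endoneurial-like cells 4 of 8 genes were at least 2-fold higher at 3 DPI and 0 lower, where 26.2% of all genes passed 2-fold in either direction. *Igfbp3* went from 11.3 to 149 CPM (ratio 13.2, interval 7.41 to 25.9) and *Igfbp4* from 374 to 1803 CPM (4.82, 4.34 to 5.37). *Igf1* was 2.41 times as high (2.15 to 2.69) and *Igfbp5* 2.24 times (2.09 to 2.39). The share of endoneurial-like cells with an *Igfbp4* UMI was 85.9% at 3 DPI and 49.8% in uninjured, or 48.6% and 16.7% when cells were thinned to 500 UMIs, and the cells had a median of 4375 and 2166 UMIs. In Schwann-like cells, where *Igfbp4* was low, the shares were 20.6% and 10.03%, or 4.72% and 4.09% when thinned. The median log2 ratio over the 8 genes was 0.84, against 0.22 over all genes.

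In epineurial/perineurial-like cells *Igfbp6* was lower at 3 DPI, with 1504 against 7901 CPM (ratio 0.190, interval 0.184 to 0.197), and *Igfbp3* was higher, with 531 against 230.5 CPM (2.30, 2.01 to 2.65). These were 1 higher and 1 lower of 8 genes, where 23.7% of all genes passed 2-fold. *Igf1*, *Igfbp4*, *Igfbp5* and *Igfbp7* had ratios of 1.14, 1.06, 0.716 and 0.717. The class held different clusters in these libraries. When only the epineurial clusters were compared, a choice made after the data had been seen, *Igfbp3* was 270.0 CPM at 3 DPI and 263 CPM in uninjured (ratio 1.03, 0.86 to 1.23), and the *Igfbp6* ratio was 0.448. *Igf1* and *Igfbp4* then had ratios of 1.54 and 1.70, and *Igfbp5* and *Igfbp7* turned from below to above 1, with 1.07 and 1.195. The mix of epineurial clusters also differed between these libraries. The cluster with *Pi16* among its leading genes held 261 cells at 3 DPI and 90 in uninjured. The cluster led by *Inmt* held 166 and 287. *Igfbp3* was 965 CPM in the 321 cells of the 3 DPI cluster led by *C1qtnf3*, *Dlk1* and *Lrrc15*, and 382 CPM in the 163 cells of the cluster led by *Top2a*, a gene of dividing cells.

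In Schwann-like cells 3 of 7 genes were at least 2-fold higher and 0 lower, where 32.7% of all genes passed 2-fold. These were *Igfbp3* with a ratio of 29.8 (interval 14.2 to 74.9), *Igfbp5* with 573 against 171 CPM (3.35, 2.57 to 4.42) and *Igf1* with 30 against 11 UMIs (2.45, 1.19 to 5.42). Only 7 cells at 3 DPI and 19 in uninjured had no UMI of 6 mesenchymal markers. They held 3 and 0 UMIs of *Igfbp5* and 1 and 0 of *Igf1*, too few for a ratio. The part of mesenchymal RNA in these values was not tested. The 3 DPI cells formed 1 cluster, the uninjured cells a non-myelinating cluster of 278 and a myelinating cluster of 81, which had 118 and 331 CPM of *Igfbp5*.

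In the vascular classes no gene with at least 20 UMIs was 2-fold higher at 3 DPI. *Igf1r*, below that number, had 13 against 5 UMIs in VSM/pericyte-like cells (ratio 2.78, interval 0.930 to 9.96). In VSM/pericyte-like cells 0 of 6 genes were at least 2-fold higher and 3 lower, where 24.6% of all genes passed 2-fold. *Igfbp5* was 843 at 3 DPI against 4659 CPM (ratio 0.181, interval 0.155 to 0.211), *Igfbp4* 544 against 1137 CPM (0.478, 0.385 to 0.591) and *Igfbp6* 38.5 against 128 CPM (0.301, 0.126 to 0.645). In endothelial-like cells 0 of 8 genes passed 2-fold, against 13.7% of all genes, with ratios between 0.649 for *Igfbp6* and 1.41 for *Igf2r*. The median log2 ratio over the genes was -0.02 (all genes 0.24) for the epineurial/perineurial-like class, -0.26 (0.14) for the Schwann-like, -0.0047 (0.026) for the endothelial-like and -0.85 (0.097) for the VSM/pericyte-like class.

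**Figure D3:**
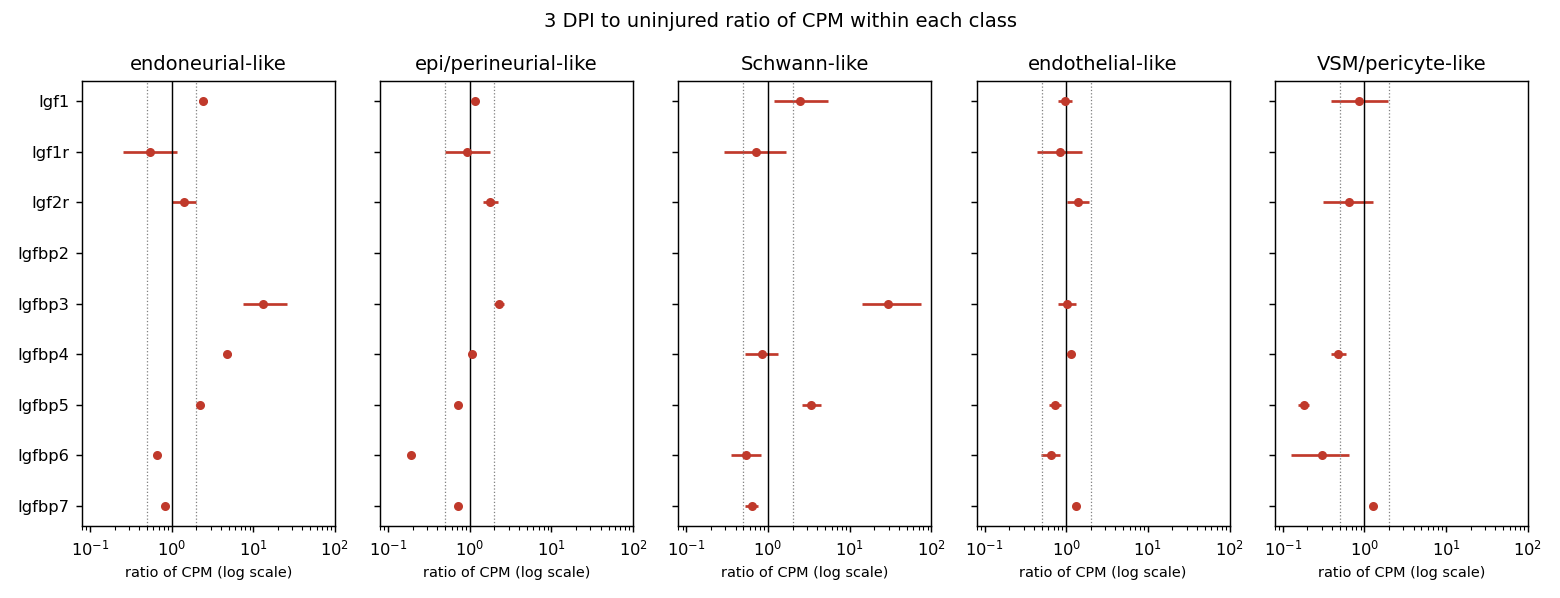
Ratio of 3 DPI to uninjured CPM on a log axis for each gene in 5 classes, with exact 95% intervals for counting error, the solid line at 1 and dotted lines at 2-fold. The largest ratios were *Igfbp3* in Schwann-like (29.8) and endoneurial-like cells (13.2), and the smallest *Igfbp5* in VSM/pericyte-like cells (0.181) and *Igfbp6* in epineurial/perineurial-like cells (0.190). Pairs with fewer than 20 UMIs, *Igfbp2* among them, are left out.

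To compare the developing with the adult nerve at one preparation, neonatal beads was set against uninjured, and neonatal FACS against uninjured is given beside it. Of 42 pairs, 12 were at least 2-fold higher and 13 at least 2-fold lower in neonatal beads, where 24.9% of pairs over all genes passed 2-fold. In endoneurial-like cells 5 of 9 genes were higher and 1 lower, where 25.8% of all genes passed 2-fold. *Igfbp2* had ratios of 199.6 (interval 54.5 to 1659.6) in neonatal beads and 296 in neonatal FACS, and *Igf1* of 4.32 (3.84 to 4.87) and 4.39. *Igfbp3* had 4.47 and 5.58, *Igf2r* 2.20 and 2.62, and *Igf1r* 2.10 in neonatal beads but 0.715 in neonatal FACS. *Igfbp6* was the gene that was lower, with ratios of 0.495 and 0.282. The *Igfbp6* ratio in neonatal beads turned to between 1.79 and 1.87 in the 3 alternatives in which this class took up perineurial cells.

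Epineurial/perineurial-like cells had 2 genes higher and 2 lower of 9 in neonatal beads, where 24.1% of all genes passed 2-fold. *Igfbp2* was higher with 45.0 against 1.01 CPM, the latter a single UMI (ratio 44.7, interval 7.56 to 1812, and 44.5 in neonatal FACS), and so was *Igf1r* (2.82 and 2.21). *Igfbp6* was lower (0.481 and 0.289), whereas *Igfbp5* was 2-fold lower in neonatal beads alone (0.482 and 0.718). *Igf2r* had ratios of 1.78 and 2.87, *Igfbp3* of 0.822 and 2.75 and *Igf1* of 0.612 and 1.17. In the epineurial clusters alone, compared after the data had been seen, *Igfbp2* had 1 UMI in neonatal beads and 1 in uninjured, which gives no ratio. The neonatal beads ratios there were 1.66 for *Igf1*, 1.51 for *Igfbp3*, 2.51 for *Igf2r*, 3.13 for *Igf1r* (9 against 14 UMIs), 0.463 for *Igfbp5* and 0.144 for *Igfbp6*, so that *Igf1* and *Igfbp3* turned from below to above 1.

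In Schwann-like cells 1 gene was higher and 4 were lower of 8, where 28.9% of all genes passed 2-fold. The lower genes were *Igfbp4* (0.474 in neonatal beads and 0.406 in neonatal FACS), *Igfbp5* (0.170 and 0.278), *Igfbp6* (0.274 and 0.239) and *Igfbp7* (0.286 and 0.148). *Igfbp3* was 2.78 times as high in neonatal beads (interval 1.33 to 7.02) and 1.31 times in neonatal FACS.

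Endothelial-like cells had 2 genes higher and 2 lower of 8, where 20.4% of all genes passed 2-fold. *Igfbp3* was 3.94 times as high (3.27 to 4.76) in neonatal beads and 5.90 times in neonatal FACS, and *Igf1r* was 2.01 times as high in neonatal beads and 1.54 times (interval 0.713 to 3.12) in neonatal FACS. *Igf2r* had ratios of 1.201 and 2.10. *Igfbp5* had ratios of 0.174 and 0.103 and *Igfbp6* of 0.154 and 0.186. Within uninjured endothelial-like cells *Igfbp3* was itself uneven, at 292 CPM in the cluster with both capillary (*Rbp7*, *Gpihbp1*) and lymphatic genes (*Ccl21a*, *Lyve1*) among its leading genes, against 87.3 and 24.3 CPM in the others.

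VSM/pericyte-like cells had 2 genes higher and 4 lower of 8, where 24.6% of all genes passed 2-fold. *Igfbp2* was 4.804-fold higher in neonatal beads when 3 UMIs were put in place of the 0 found in uninjured. Set the same way, it was 4.403-fold higher in neonatal FACS, where it had 15 UMIs. These values have no interval. *Igfbp4* had ratios of 0.239 in neonatal beads and 0.158 in neonatal FACS, *Igfbp5* 0.311 and 0.364, and *Igfbp6* 0.177 and 0.165. *Igf1* was 0.386 (interval 0.167 to 0.870) in neonatal beads and 0.881 in neonatal FACS. The median log2 neonatal beads ratio over the genes was 1.07 (all genes 0.20) for the endoneurial-like class, -0.28 (0.17) for the epineurial/perineurial-like, -0.95 (0.069) for the Schwann-like, 0.061 (0.11) for the endothelial-like and -0.75 (0.14) for the VSM/pericyte-like class.

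**Figure D4:**
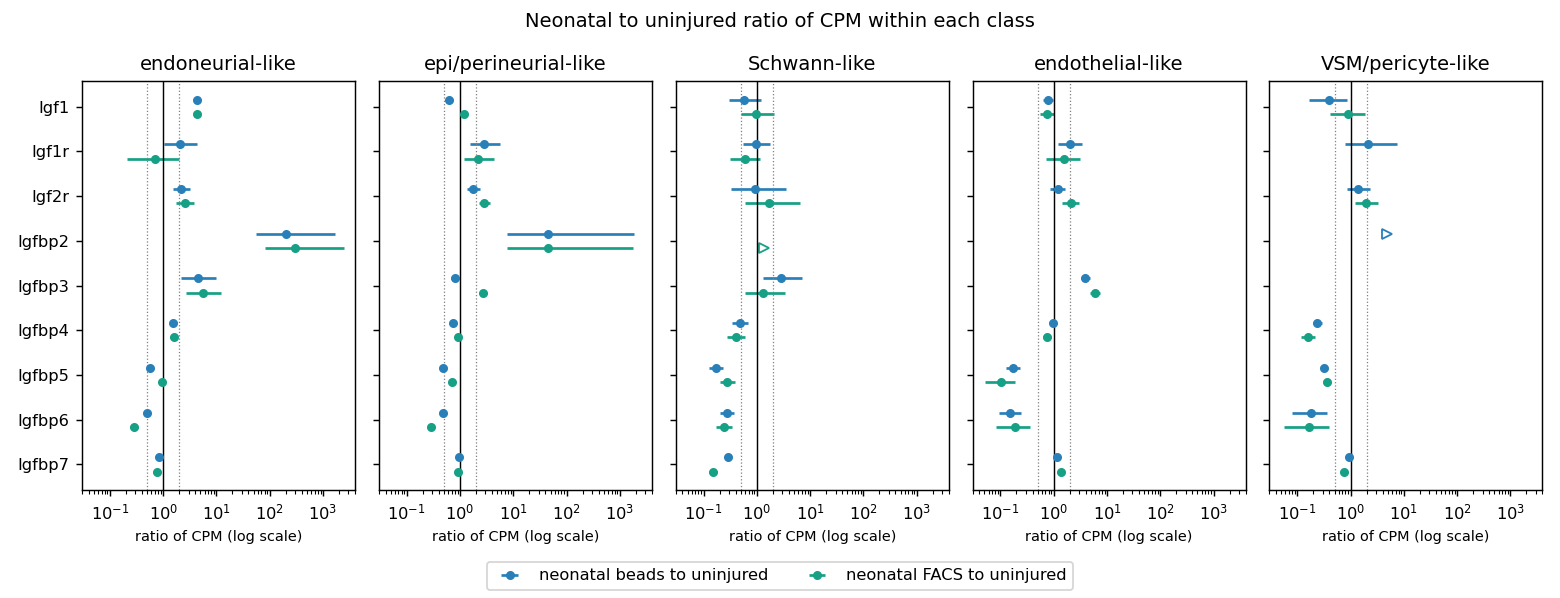
Ratio of each neonatal library to uninjured CPM on a log axis for each gene in 5 classes, with exact 95% intervals for counting error, the solid line at 1 and dotted lines at 2-fold. Open triangles are ratios with 3 UMIs in place of a count of 0 in uninjured, with no interval. Pairs with fewer than 20 UMIs are left out. *Igfbp2* in endoneurial-like cells lay at 199.6 and 296, and *Igfbp3* in endothelial-like cells at 3.94 and 5.90.

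Because each UMI marks 1 captured molecule at its 3′ end, the UMIs of the 6 binding protein genes were also added. The sum was 6621, 4390, 3663 and 3936 CPM in endoneurial-like, 9373, 17474, 10901 and 10885 CPM in epineurial/perineurial-like and 1739.5, 1233, 393 and 274 CPM in Schwann-like cells. It was 9534, 7589, 8468 and 9906 CPM in endothelial-like and 12326, 14562, 9691 and 8538 CPM in VSM/pericyte-like cells. Schwann-like cells had the lowest sum of these 5 classes in every library. *Igfbp3* made up 28.9% of the binding protein UMIs of 3 DPI Schwann-like cells, 1.37% in uninjured Schwann-like cells and 5.66% in 3 DPI epineurial/perineurial-like cells.

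**Figure D5:**
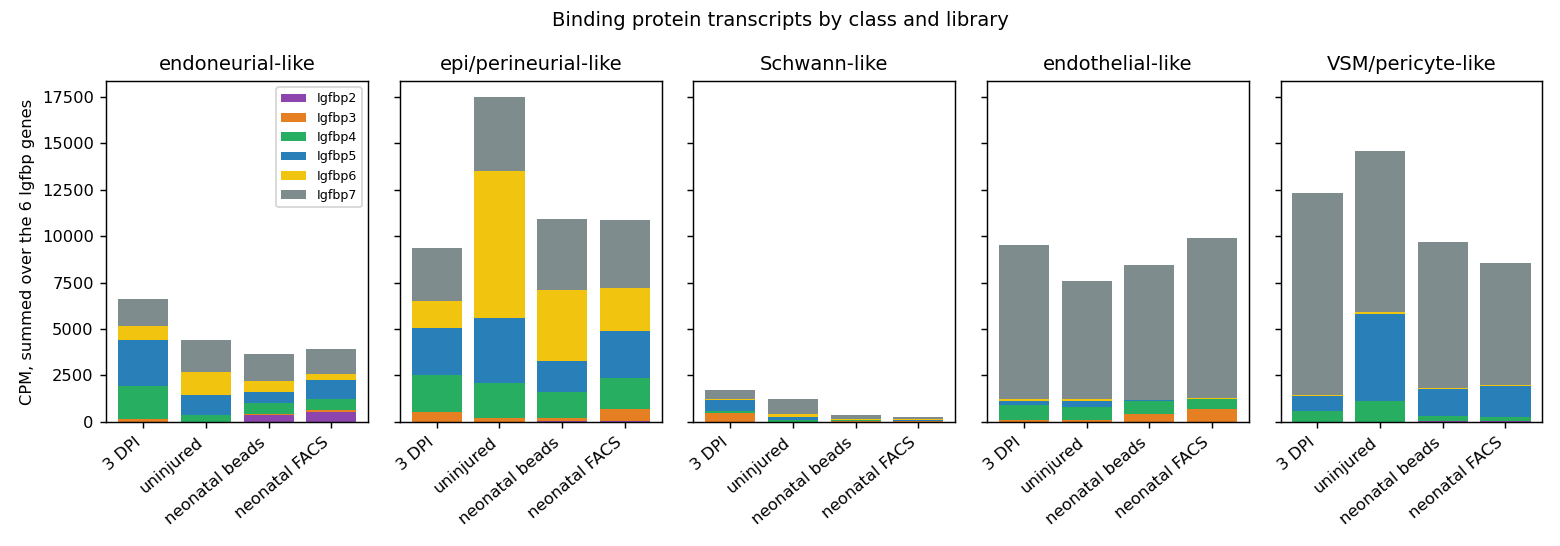
CPM summed over the 6 *Igfbp* genes in 5 classes and 4 libraries, as stacked bars from 0, coloured by gene. *Igfbp7* fills most of the endothelial-like and VSM/pericyte-like bars, *Igfbp6* is the largest part of the uninjured epineurial/perineurial-like bar (17474 CPM in all), and the Schwann-like bars are the shortest.

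The other genes of the pathway were followed as a list of 29, all of them listed in at least 1 library, of which 22 passed the filter on low counts. In endoneurial-like cells 9 were called higher and 2 lower (24.6% of all genes were called), in epineurial/perineurial-like cells 8 and 1 (21.6%) and in Schwann-like cells 3 and 6 (33.2%). For the endothelial-like class the counts were 6 and 6 (30.0%), for VSM/pericyte-like 6 and 1 (19.3%), for immune-like 1 and 5 (27.3%), and between the mesenchymal classes 2 and 2 (7.36%). Over the 20 that had a UMI in every class, the median log2 difference lay between -0.29 (immune-like) and 0.33 (epineurial/perineurial-like). *Igf2*, the second ligand, was called higher in both mesenchymal classes (log2 differences 2.19 and 2.55, adjusted p = 0.000289 and 3.52e-05). The endoneurial-like class was higher in 3 of 4 libraries and the epineurial/perineurial-like class in 4 of 4. Schwann-like (-3.88, adjusted p = 9.40e-05) and immune-like cells (-2.96, adjusted p = 0.00390) had less *Igf2*. It stood at 5224 and 5779.5 CPM in endoneurial-like and 5028 and 5748 CPM in epineurial/perineurial-like cells of neonatal beads and neonatal FACS, and at 18.4 and 50.8 CPM and 80.4 and 54.4 CPM in these classes at 3 DPI and in uninjured. Summed over all cells, *Igf2* had 53.0 CPM at 3 DPI and 139 CPM in uninjured. In uninjured both mesenchymal classes lay below that value, and at 3 DPI the endoneurial-like class did.

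*Ghr*, the growth hormone receptor, was higher in endoneurial-like (3.77, adjusted p = 3.07e-07) and epineurial/perineurial-like cells (2.34, adjusted p = 0.00102), each in 4 of 4 libraries, with 43.5, 82.7, 245 and 271 CPM in endoneurial-like cells. The immune-like cells held no *Ghr* UMI, so that these log2 values depend on the fit and are no bounds, and *Ghr* was called lower in them (adjusted p = 0.000930). *Htra1*, a protease that can cleave IGF binding proteins, was higher in endoneurial-like (2.31, adjusted p = 6.08e-05) and VSM/pericyte-like cells (2.14, adjusted p = 0.000434) and lower in Schwann-like cells (-2.84, adjusted p = 0.000236). *Irs1* and *Irs2*, adaptors of the receptor, were lower in endothelial-like cells (-2.81 and -3.32, adjusted p = 0.000159 and 1.10e-05), and *Grb10*, an inhibitory adaptor, was higher in epineurial/perineurial-like cells (2.37, adjusted p = 2.00e-10). *Grb14* was higher in Schwann-like (2.25, adjusted p = 4.10e-05) and VSM/pericyte-like cells (1.35, adjusted p = 0.0416) and lower in immune-like cells (-4.53, adjusted p = 0.00335). Against epineurial/perineurial-like cells, endoneurial-like cells were higher in *Irs2* (1.64, adjusted p = 0.00840) and *Mtor* (1.17, adjusted p = 0.0130) and lower in *Stc1* (adjusted p = 0.0135). *Stc1*, which encodes a stanniocalcin, a family of secreted glycoproteins that block pappalysins, was called higher in endothelial-like (adjusted p = 3.08e-05) and VSM/pericyte-like cells (adjusted p = 5.99e-05), and its fold is not given because immune-like cells were at 0. *Igfbp1*, *Igfals* and *Igfbpl1* had between 1 and 2 UMIs in all.

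The genes whose pattern lay nearest to each of the 9 were found by Pearson's r of log2(CPM + 10) over the 24 class and library values, among 6093 genes, as a description. Points share libraries and classes, so no p is given. The nearest were *Serpinf1* to *Igfbp6* (r = 0.96), *Bgn* to *Igfbp5* (0.92), *Cav1* to *Igfbp7* (0.92), *Tro* and *Dlk1* to *Igfbp2* (0.89 each), *Rrbp1* to *Igf1* (0.88), *Anapc11* to *Igf1r* (0.88), *Pear1* to *Igf2r* (0.86), *Gja1* and *Gap43* to *Igfbp3* (0.82 each) and *Tgfbr2* to *Igfbp4* (0.80). Among the 9 themselves the highest r was 0.74 between *Igf1* and *Igfbp4*, followed by 0.73 between *Igf2r* and *Igfbp7*, and the lowest was -0.15 between *Igf1r* and *Igfbp6*.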

How the data were processed

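The authors deposited a raw digital gene expression matrix for each library, which holds the UMI counts for each gene and cell barcode, made with the Drop-seq alignment steps on mm10 (per the labels). The sources used here do not name the aligner's version. A barcode was removed when it had under 200 genes, over 10% mitochondrial or over 5% hemoglobin UMIs, then the 5% with the highest scrublet score (scanpy 1.11.5). This kept 2163 of 2500 (3 DPI), 1838 of 2000 (uninjured), 5420 of 6200 (neonatal beads) and 2191 of 2500 (neonatal FACS) barcodes.

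Counts were normalized with scran 1.30.0 and clustered in Seurat 5.3.0 (2000 variable genes without the IGF genes, 20 principal components, resolution 0.4), with the neonatal libraries together. Clusters took a class from marker genes, so classes are written X-like. UMIs were summed over classes with at least 10 cells in a library and tested with edgeR 4.0.16 (R 4.3.3, filterByExpr, TMM, library as a block, adjusted p under 0.05), and DESeq2 1.42.0 was an alternative. The tests were checked on simulated counts. Intervals are exact 95% Poisson, binomial or ratio intervals, and all cover counting error only. A count of 0 was set to 3 UMIs for a ratio, which then has no interval. Where no cell held a UMI, the share that 3 cells would make is given. Ratios need 20 UMIs in both libraries together. Gene positions are RefSeq's for GRCm38.p6, the build of mm10. The members, the pathway list and the tests were chosen with earlier results of these data known. All 9 members are described in every class, up to 3 pathway genes per contrast are named by the largest log2 difference among those called, and for likeness the nearest of the genes reaching 100 CPM. Free RNA in droplets was not removed, and its part in low values was not tested.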

Additional observations from a re-analysis of the deposited data

Results flagged for a closer look

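At 3 DPI, *Igfbp4* and *Igfbp5* lay beyond 2-fold in opposite directions from uninjured in different classes. For *Igfbp4* the ratio was 4.82 in the endoneurial-like and 0.478 in the VSM/pericyte-like class. For *Igfbp5* it was 2.24 in endoneurial-like, 3.35 in Schwann-like and 0.181 in VSM/pericyte-like cells. In neonatal beads, *Igf1* had a ratio to uninjured of 4.32 in endoneurial-like and 0.386 in VSM/pericyte-like cells, the latter 0.881 in neonatal FACS. Each condition had 1 library, so the difference between classes was not tested.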

How the results depend on the processing

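Of the class test values under the alternatives, 490 kept their direction and side of the threshold, 56 fell short of it and 0 reversed. Of the ratio values, 470 lay within the counting interval of the reported ratio and 137 did not, counting ratios that have no interval. A further 5, from ratios beyond 2-fold, crossed 1. The immune-like calls, 4 as reported, were 2 at 500 genes per cell or more, 2 without the library block and 7 without the low-count filter, with 2 to 4 when a library was left out (2 without uninjured). Calls between endoneurial-like and epineurial/perineurial-like cells, 4 as reported, were 2 without doublet removal, at most 5% mitochondrial UMIs, with library size normalization or with cell-by-cell assignment, 7 without the low-count filter and 0 without the library block, with 2 to 5 when a library was left out (2 without uninjured, 5 without 3 DPI). Without the block the spread between libraries enters the error. The neonatal pairs beyond 2-fold, 25 as reported, were 14 with every cell thinned to 500 UMIs, where fewer pairs hold 20 UMIs. Reversed ratios of neonatal to uninjured in endoneurial-like cells were *Igf1r*, 0.993 when thinned and 0.715 in neonatal FACS, and *Igfbp6*, 1.79 without doublet removal, 1.83 at most 5% mitochondrial UMIs and 1.87 with library size normalization. In these 3 settings the neonatal *Igf1* was highest in epineurial/perineurial-like cells. No paired analysis was possible because each condition had 1 library. Low counts limit *Igf1r* in all classes and every gene in uninjured immune-like cells.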

Other observations

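The IGF2 mRNA binding proteins, RNA-binding proteins of fetal tissues that belong to the pathway list, were chosen for mention after their values had been seen. Summed over all cells, *Igf2bp1* had 10.7 CPM in neonatal beads and 8.61 CPM in neonatal FACS, against 0.685 CPM at 3 DPI (5 UMIs) and 0.737 CPM in uninjured (3 UMIs). *Igf2bp3* had 42.6 and 38.3 CPM in the neonatal libraries, and 8 and 4 UMIs at 3 DPI and in uninjured. *Igf2bp2* had 104 and 81.8 CPM in the neonatal libraries, 27.3 CPM at 3 DPI and 8.84 CPM in uninjured. Within the neonatal libraries *Igf2bp2* stood at 152 and 129 CPM in Schwann-like cells and at 10.6 and 8.10 CPM in endothelial-like cells, whereas *Igf2bp3* stood at 44.9 and 41.5 CPM and at 62.6 and 62.1 CPM in these classes. The classes differed in their share of each library, with Schwann-like cells holding 57.5% and 46.7% of the UMIs in neonatal beads and neonatal FACS, 6.33% at 3 DPI and 10.2% in uninjured. By class, *Igf2bp2* in adult nerve stood at 75.7 CPM at 3 DPI (35 UMIs) and 14.4 CPM in uninjured (6 UMIs) in Schwann-like cells, at 35.05 and 23.2 CPM in epineurial/perineurial-like cells, and at 3.95 and 2.26 CPM in the endothelial-like class. With 1 library for each condition the differences were not tested.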
